A study of Mus musculus with 128 samples.

Results

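The comparison was of interscapular brown fat from SM/J mice that ate a high-fat diet, at 30 weeks against 20 weeks of age. It rested on 16 of the 128 libraries of the series, 8 at each age, with 4 from females and 4 from males. SM/J is an inbred strain, the labels name no engineered allele or drug, and the animals of both ages ate the same diet. The series title names obesity and a remission of disturbed glucose control in these mice, and it puts an expansion of the brown fat beside them. Body weight and glucose were not analysed here. Time on the diet and glucose control may differ between the ages as well, and the design cannot tell them apart from age. Brown fat of SM/J mice on a low-fat diet and of LG/J mice, another inbred strain, on the high-fat diet (16 libraries each, with the same ages and sexes) was used to ask whether the age changes differed there.

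Brown fat burns lipid to make heat. Its adipocytes are packed with mitochondria whose inner membrane holds the uncoupling protein Ucp1, and they take up fatty acids, glucose and amino acids as fuel. Around them lie macrophages and other immune cells, fibroblast-like progenitors, blood vessels and nerves, and in obesity immune cells and storage lipid build up in the tissue. All of these cells gave RNA to the libraries. A lower level of a cell type's gene can therefore mean fewer such cells or less of the RNA in each, and bulk libraries cannot tell these apart.

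Levels are given as the deposited normalised counts, whose scaling is not described in the sources used here. They are compared between libraries for a gene and not between genes. Changes are log2 differences of 30 minus 20 weeks, adjusted for sex. A gene is said to have risen or fallen if its adjusted p was under 0.05 by limma with Benjamini-Hochberg adjustment over all 13252 genes of the table. Library totals ran from 17930804 to 20053406, and pairs of libraries that share age and sex had a Pearson correlation over genes (not independent points) between 0.963 and 0.992. Of 41 brown adipocyte genes 34 were measured, none at 0 in any library. The other marker lists, apart from skeletal muscle, had none at 0 either, so that this is no test of the tissue label. Skeletal muscle RNA was unevenly present, with a summed level of 27 muscle genes of 1200 to 90860 per library. The rows of the deposited table stood nearly in the order of the age p (Spearman correlation 0.969 across genes).

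With age, 193 genes changed, which is 1.46% of the genes tested. Of these, 98 rose (0.74%) and 95 fell (0.717%). Most changes were modest. Their median size was 0.479, 104 were under 0.5, and 18 were over 1, of which 5 were rises and 13 were falls. The 20-week and 30-week libraries did not overlap for 38 of the 193, of which 21 rose and 17 fell, against 0.332% of all genes tested. The median change of all genes was 0.00. In fits that left out each of the 16 libraries in turn, 56 of the 193 passed every time, 31 of them higher and 25 lower. The number past the threshold rested on single libraries. It was 64 without 20-week male 704 or male 290, 121 without 20-week female 864, 83, 119 and 122 without 30-week females 729, 786 and 740, and 95, 74 and 85 without 30-week males 656, 655 and 653. It was 609 without 20-week male 734, and all 193 were among these. All 193 kept their sign in each of the 16 fits. These fits share most libraries with the one that called the genes, so that the kept signs are no separate support.

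Of the 193 genes, 88 belonged to at least 1 of 77 lists of pathways, cell types and gene families, 44 of them higher and 44 lower. The lists held 3082 of the 13252 genes tested, and 1.46% of all genes passed. Lists of immune signalling held 3 genes that rose and 12 that fell, and cell type markers held 2 and 11, with some genes in both. Lists of metabolism held 15 that rose and 10 that fell, matrix and adhesion 8 and 9, and hormone signalling 4 and 4. Lists of proliferation, chromatin and imprinting held 6 and 1. Of these rises, 3 were of imprinted genes and 2 of cell cycle genes, and 63 of 101 cell cycle genes had negative changes. The counts come from lists of unequal size that were chosen with earlier results of these data known, and no test was made of a list.

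**Figure D1:**
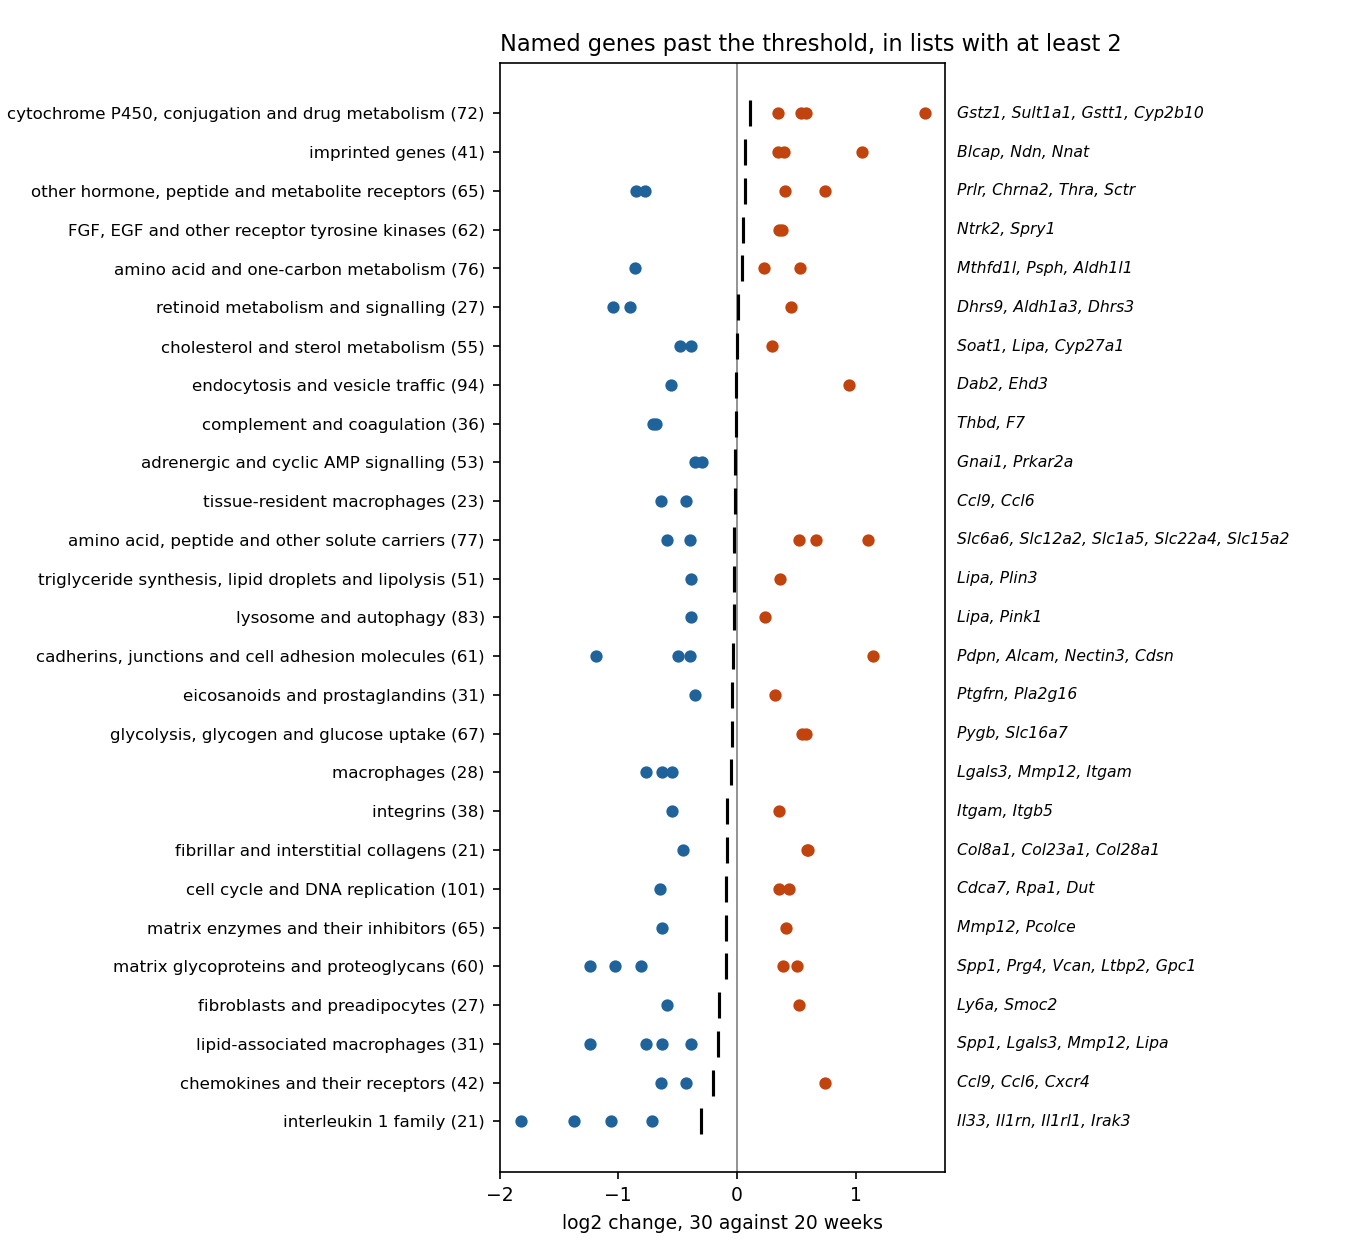
Each row is a gene list with at least 2 of the genes named here as past the threshold, with the number of its measured genes in brackets. Points are the log2 changes of those that rose (red) or fell (blue) from 20 to 30 weeks, named on the right from the lowest to the highest change, and the black tick is the median change of all measured genes of the list. Rows are ordered by that median, from the interleukin 1 family at -0.31 to cytochrome P450, conjugation and drug metabolism at 0.11.

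The interleukin 1 family held 4 of the falls, among them the largest. It is made of alarm cytokines, their receptors and the adaptor proteins that pass the signal on to NF-kB, and in fat these molecules are known both for inflammation and for the upkeep of resident immune cells. Of 21 measured members 4 fell and 0 rose, and 18 had negative changes, with a median of -0.31. The members that fell were a ligand (Il33), a receptor (Il1rl1) and a pair known as brakes of the pathway (Il1rn and Irak3).

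Il33 encodes an alarmin that is held in the nuclei of stromal and endothelial cells and released on damage. Its normalised count was 119.6 to 1052 at 20 weeks (median 274) and 40.5 to 259.5 at 30 weeks (median 86.8). The 3 highest of the 16 libraries were the 20-week males 704, 290 and 703, and every 30-week library lay below the 20-week median. Il33 fell by 1.82 (SE 0.29, adjusted p = 0.00841), and it passed in all 16 fits that left out a library. Il1rl1, the receptor chain that binds Il33, lay at 67.5 to 397 at 20 weeks (median 149) and 56.7 to 132 at 30 weeks (median 60.0). Its 4 female libraries at 30 weeks were all at 56.7 to 60.1, below every 20-week library. Il1rl1 fell by 1.06 (SE 0.25, adjusted p = 0.0433).

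Il1rn encodes the secreted antagonist that blocks the interleukin 1 receptor. It lay at 113 to 720.2 at 20 weeks (median 255) and 53.6 to 192 at 30 weeks (median 112), with the same 3 males of 20 weeks the highest, and fell by 1.38 (SE 0.32, adjusted p = 0.0388). Irak3, a kinase-like protein that holds back the signal below interleukin 1 and Toll-like receptors, lay at 380.5 to 920.2 at 20 weeks (median 586) and 275 to 523 at 30 weeks (median 353) and fell by 0.72 (SE 0.13, adjusted p = 0.0162). The age groups overlapped for all 4 genes. Irak3 passed in all 16 fits that left out a library, while Il1rn passed in 4 and Il1rl1 in 3. The 3 members of next smallest p did not pass. They were the signalling receptor Il1r1 (1337 ± 876 and 658 ± 326, the mean ± SD of the 8 libraries of each age, as below; change -0.89, SE 0.24, adjusted p = 0.0647), the interleukin 18 receptor Il18r1 (change 0.83, SE 0.21, adjusted p = 0.0554) and the inflammasome adaptor Pycard (change -0.34, SE 0.12, adjusted p = 0.144).

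**Figure D2:**
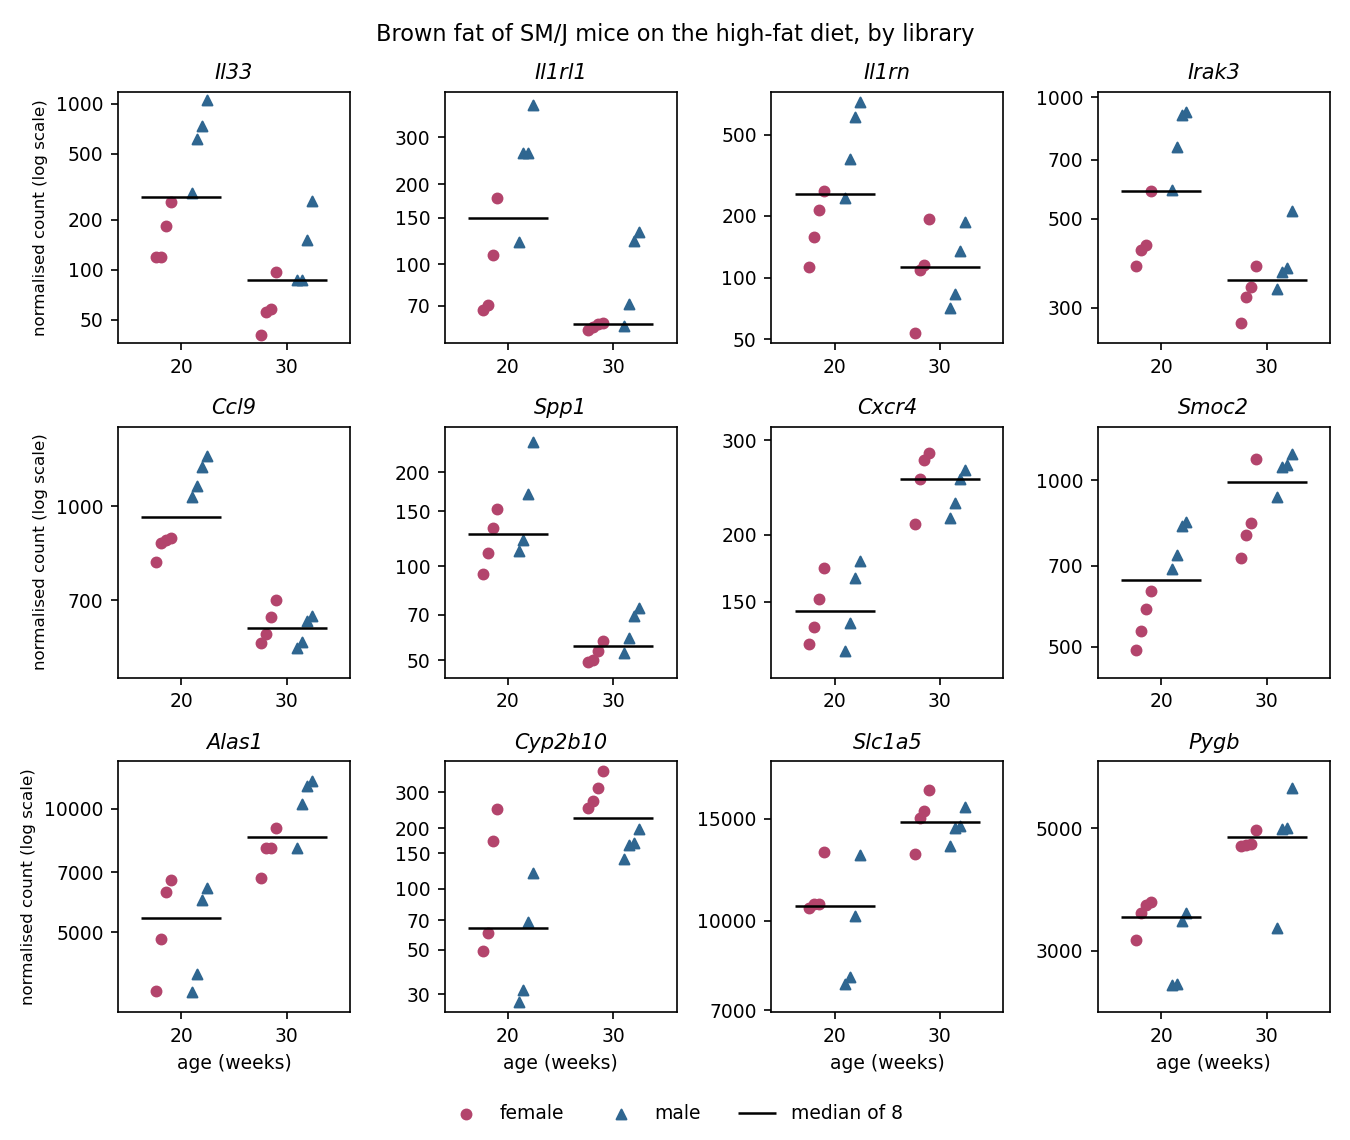
Normalised counts of 12 genes in the 16 libraries, on a log axis, against age in weeks. Circles are females, triangles are males, and the line is the median of the 8 libraries of an age. Ccl9, Spp1, Cxcr4 and Alas1 show no overlap between the ages, while Il33, Il1rl1, Il1rn and Irak3 are highest in males of 20 weeks.

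Chemokines guide immune cells. Of 42 measured chemokines and receptors 2 fell (Ccl9 and Ccl6) and 1 rose (Cxcr4), and 34 had negative changes with a median of -0.21. Ccl9, a macrophage chemokine, had the smallest p of all genes. It lay at 809.9 to 1210 at 20 weeks (median 961) and 584 to 699 at 30 weeks (median 630.3), so that the highest library of 30 weeks was below the lowest of 20 weeks. Ccl9 fell by 0.64 (SE 0.07, adjusted p = 0.00107). Its neighbour Ccl6 lay at 1141 to 1293 at 20 weeks (median 1246) and 733 to 1149 at 30 weeks (median 905), with 1 library of 30 weeks, female 646, above the lowest of 20 weeks, and fell by 0.43 (SE 0.07, adjusted p = 0.007). Cxcr4, the receptor of the chemokine Cxcl12, moved the other way, and all 8 libraries of 30 weeks lay above the highest of 20 weeks. It lay at 121 to 179 at 20 weeks (median 144) and 209 to 284 at 30 weeks (median 254) and rose by 0.74 (SE 0.10, adjusted p = 0.00267). The neutrophil chemokine Cxcl5 (change -2.31, SE 0.72, adjusted p = 0.101) and the receptor Ccr1 (change -1.03, SE 0.27, adjusted p = 0.0596) did not pass.

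The upstream DNA of 4 of these genes is shown because Il33 had the largest fall, Il1rn is its fallen relative, and Ccl9 and Ccl6 are neighbours that fell together. Each sequence holds the 250 bases before the most upstream RefSeq start in the GRCm38.p6 build, written from 5′ to 3′ on the gene's strand, and which start these tissues used was not measured. Capitals mark matches on either strand to an AP-1 motif (TGANTCA) or an NF-kB motif (GGG, any 2 bases, then TTTCC), where N is any base. The windows lie at chr19:29924863-29925112 (plus strand) for Il33, chr2:24336610-24336859 (plus strand) for Il1rn, chr11:83578637-83578886 (minus strand) for Ccl9 and chr11:83593088-83593337 (minus strand) for Ccl6.
Il33: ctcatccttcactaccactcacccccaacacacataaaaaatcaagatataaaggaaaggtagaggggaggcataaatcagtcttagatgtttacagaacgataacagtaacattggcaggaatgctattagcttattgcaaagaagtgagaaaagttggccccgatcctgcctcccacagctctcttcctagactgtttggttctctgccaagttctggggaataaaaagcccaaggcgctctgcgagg
Il1rn: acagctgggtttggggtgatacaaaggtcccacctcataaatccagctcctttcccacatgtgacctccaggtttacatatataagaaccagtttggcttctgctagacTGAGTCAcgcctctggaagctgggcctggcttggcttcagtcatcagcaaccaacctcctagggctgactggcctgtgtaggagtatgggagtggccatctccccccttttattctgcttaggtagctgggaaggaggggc
Ccl9: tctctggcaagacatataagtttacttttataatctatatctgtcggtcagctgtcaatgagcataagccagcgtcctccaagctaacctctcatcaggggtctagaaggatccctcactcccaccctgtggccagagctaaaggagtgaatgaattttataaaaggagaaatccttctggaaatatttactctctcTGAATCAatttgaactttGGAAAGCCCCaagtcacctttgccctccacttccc
Ccl6: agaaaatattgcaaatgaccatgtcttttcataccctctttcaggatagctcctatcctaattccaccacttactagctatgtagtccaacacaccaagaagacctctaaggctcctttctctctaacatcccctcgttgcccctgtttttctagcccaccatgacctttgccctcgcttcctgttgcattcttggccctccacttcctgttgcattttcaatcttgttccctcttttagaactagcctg
The Il1rn window held 1 AP-1 match. The Ccl9 window held 1 match of each motif, and the Il33 and Ccl6 windows held neither. The motifs do not overlap in these windows. Of the genes tested, 9914 had such a window, and 4.22% of these held the AP-1 motif and 1.37% the NF-kB motif. Among the genes that fell, 3 of 67 windows (4.48%) held the AP-1 motif and 2 of 67 (2.99%) the NF-kB motif, and among those that rose, 0 of 69 held either. A match describes the letters and not binding.

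In the lists next to these, few genes passed while many had small negative changes. The share past the threshold was 3.33% for NF-kB genes and 2.17% for interferon response genes, 1 gene in each, against 1.46% of all genes. Of 30 NF-kB pathway genes 24 had negative changes (median -0.15), and the 1 that passed was Tnip3, an inhibitor of the pathway, which lay at 26.9 to 67.1 at 20 weeks (median 41.8) and 9.99 to 37.1 at 30 weeks (median 20.5) and fell by 1.08 (SE 0.19, adjusted p = 0.0139). Interferon response genes had 37 of 46 negative changes (median -0.18), but the median was -0.03 without 20-week male 704, -0.02 in females (25 of 46 negative) and -0.30 in males. The 1 that passed was a rise, that of the interferon gamma receptor chain Ifngr1 (3049 to 4304 at 20 weeks (median 3400) and 4100 to 5071 at 30 weeks (median 4577); change 0.37, SE 0.09, adjusted p = 0.0388). The interleukin 6 family and colony-stimulating factors had 16 of 22 negative changes (median -0.25) and 0 past limma's threshold (14 at an unadjusted p under 0.05), with the receptor Osmr at 1725 ± 865 and 1022 ± 449 (change -0.70, SE 0.19, adjusted p = 0.0743). Of the tumour necrosis factor family (22 measured) and of Toll-like and other pattern receptors (37), 0 passed by limma, with 6 and 11 at an unadjusted p under 0.05. Among 20 other interleukins and their receptors 1 fell, the interleukin 7 receptor Il7r (52.2 to 94.8 at 20 weeks (median 68.4) and 35.5 to 54.1 at 30 weeks (median 44.3); change -0.62, SE 0.14, adjusted p = 0.0356). Genes of MHC class I and class II antigen presentation leaned the other way, with 19 of 25 and 9 of 14 positive changes, medians of 0.13 and 0.12, and 0 past limma's threshold (5 and 3 at an unadjusted p under 0.05).

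Clotting and complement genes had 17 positive and 19 negative changes of 36, with 2 higher and 10 lower at an unadjusted p under 0.05, and 2 fell. Thbd, the endothelial thrombin receptor thrombomodulin, lay at 1243 to 2616 at 20 weeks (median 1356) and 829 to 1309 at 30 weeks (median 951) and fell by 0.71 (SE 0.13, adjusted p = 0.0162). F7, coagulation factor VII, fell by 0.68 (SE 0.15, adjusted p = 0.0348). Of 31 eicosanoid genes, the phospholipase Pla2g16 rose by 0.32 (SE 0.07, adjusted p = 0.0356) and Ptgfrn, a regulator of the prostaglandin F2 receptor, fell by 0.35 (SE 0.08, adjusted p = 0.0388).

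Macrophage markers did not move as 1 block. Of 28 measured, 3 fell and 0 rose, 19 had negative changes and the median was -0.05. Itgam, an integrin chain of myeloid cells, lay at 331 to 687 at 20 weeks (median 435) and 252 to 432 at 30 weeks (median 297) and fell by 0.55 (SE 0.12, adjusted p = 0.0348). Lgals3, a galectin of activated macrophages, lay at 888 to 2889 at 20 weeks (median 1454) and 700.5 to 1166 at 30 weeks (median 925) and fell by 0.77 (SE 0.18, adjusted p = 0.0388), and Mmp12, macrophage elastase, fell by 0.63 (SE 0.15, adjusted p = 0.0421). In the 16 fits that left out a library, Itgam passed in 7, Lgals3 in 5 and Mmp12 in 5. Adgre1, which encodes the general marker F4/80, was 619 ± 99.5 and 688 ± 115 (change 0.15, SE 0.10, adjusted p = 0.428), and Csf1r, the receptor macrophages need to survive, was 1183 ± 253 and 1522 ± 213 (change 0.38, SE 0.12, adjusted p = 0.0907).

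Genes known from lipid-associated macrophages, the cells that clear lipid from dying adipocytes, had 26 of 31 negative changes with a median of -0.16, and 4 fell. Spp1, the secreted matrix protein osteopontin, lay at 94.2 to 249.8 at 20 weeks (median 127) and 49.3 to 73.3 at 30 weeks (median 55.6). The ages did not overlap, and Spp1 fell by 1.24 (SE 0.15, adjusted p = 0.00136). Lipa, the acid lipase of lysosomes, lay at 3094 to 3428 at 20 weeks (median 3174) and 1843 to 3206 at 30 weeks (median 2520) and fell by 0.38 (SE 0.09, adjusted p = 0.0356), and the others were Lgals3 and Mmp12. Brown adipocytes also express some genes of this list, such as the lipid droplet coat gene Plin2 (41460 ± 11020 and 27830 ± 4964; change -0.55, SE 0.15, adjusted p = 0.0636). Of 48 leukocyte receptors and signalling genes 37 had negative changes (median -0.14), and the tetraspanin Cd53 fell from 484 to 375 in the median (change -0.52, SE 0.12, adjusted p = 0.0382), with no overlap. Cd53 alone is 2.08% of that list, near the 1.46% of all genes.

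The summed level of the 28 macrophage genes was 20210 to 24040 at 20 weeks and 16580 to 23150 at 30 weeks, with medians of 20960 and 20310. With the mean log2 level of these genes in each library as a covariate, 25 genes passed, 24 of them among the 193. All 193 kept their sign, and their median size was 0.451 against 0.479 without the covariate. Ccl9 (change -0.61), Spp1 (-1.09), Ccl6 (-0.38), Cxcr4 (0.86) and Il33 (-1.33) still passed. Il1rn (-0.93), Il1rl1 (-0.86) and Irak3 (-0.57) did not. Itgam, Lgals3 and Mmp12 are themselves part of this covariate, so that it says nothing of them. The median change of the interleukin 1 family was -0.14 with the covariate, that of NF-kB genes -0.002 and that of leukocyte receptors 0.009. The summed level of 5 T and NK cell genes was 2110 to 4022 and 2005 to 3204, and that of 7 neutrophil genes 5591 to 10900 and 4388 to 15450. The sum of 27 fibroblast and preadipocyte genes was 55780 to 69810 and 48510 to 79830, and that of 27 endothelial genes 37280 to 49440 and 38800 to 46580. All these ranges overlapped.

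Skeletal muscle genes had 26 of 27 negative changes with a median of -1.60, and 0 passed by limma, with 1 at an unadjusted p under 0.05. Their summed level was 1498 to 84890 at 20 weeks and 1200 to 90860 at 30 weeks. In females the median change was -3.82 and in males 0.38. With the mean log2 level of the muscle genes as a covariate, 154 genes passed and 131 of the 193 were among them.

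**Figure D3:**
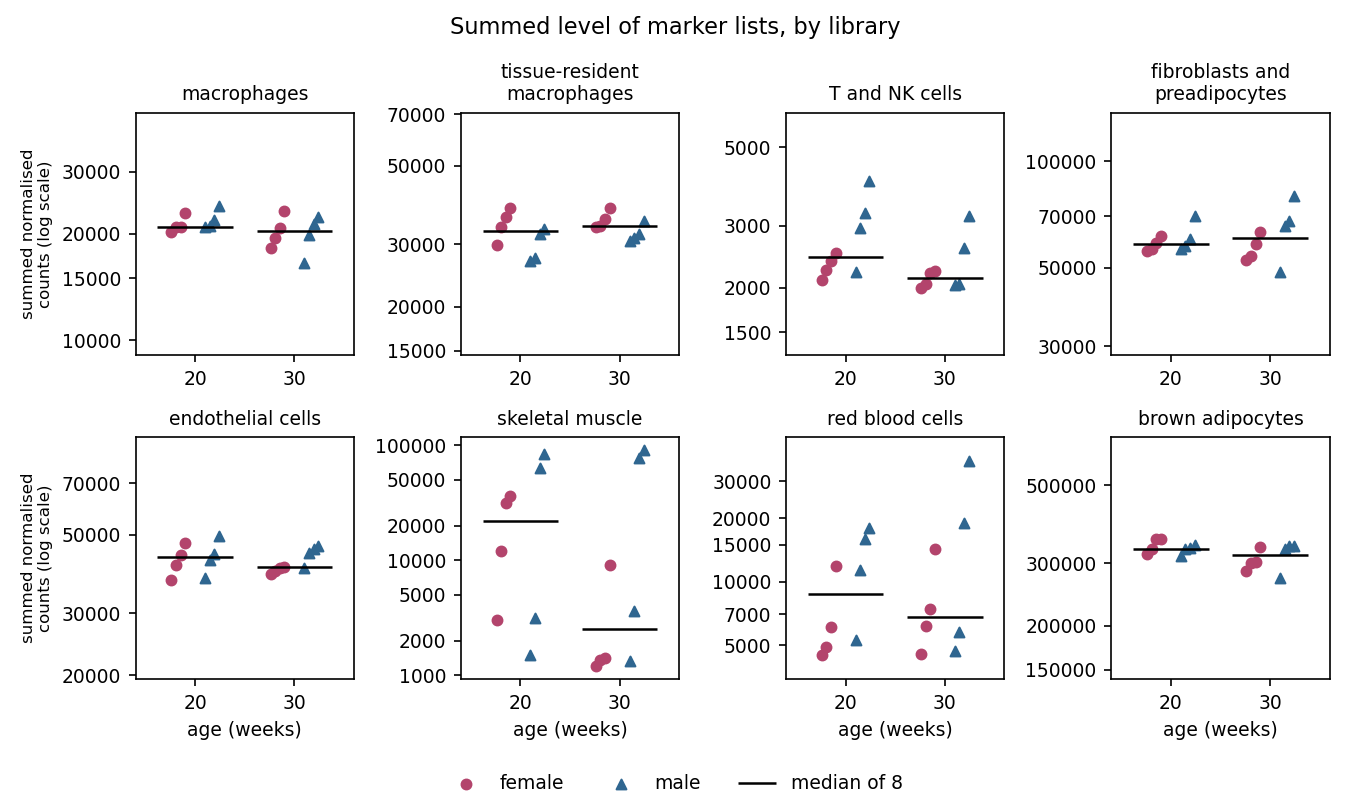
Summed normalised counts of 8 marker lists in each library, on a log axis, against age in weeks. Circles are females, triangles are males, and lines are the medians of 8 libraries. Macrophage sums lie at 20210 to 24040 at 20 weeks and 16580 to 23150 at 30 weeks, and muscle sums at 1498 to 84890 and 1200 to 90860, so that the ages overlap in both.

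Genes of the extracellular matrix gave a few rises and a few falls. Of 21 collagens 2 rose and 1 fell. Col23a1, a transmembrane collagen, lay at 57.2 to 94.0 at 20 weeks (median 82.2) and 99.6 to 156 at 30 weeks (median 112) and rose by 0.58 (SE 0.12, adjusted p = 0.0247) with no overlap, and Col28a1, a collagen of basement membranes around nerves, rose by 0.60 (SE 0.13, adjusted p = 0.0295). Col8a1, a short-chain collagen of remodelling vessels, fell by 0.45 (SE 0.11, adjusted p = 0.0428). Of the 16 fits that left out a library, Col23a1 passed in 13, Col28a1 in 9 and Col8a1 in 4. The fibrillar collagens did not pass, with Col1a1 at 2588 ± 1049 and 1770 ± 397 (change -0.49, SE 0.20, adjusted p = 0.203) and Col3a1 at 17510 ± 4101 and 13330 ± 3361 (change -0.40, SE 0.14, adjusted p = 0.14). The list had 15 of 21 negative changes.

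Among 60 matrix glycoproteins and proteoglycans 2 rose and 3 fell. The large proteoglycan Vcan, which swells provisional matrix, lay at 542 to 1438 at 20 weeks (median 703) and 341 to 756 at 30 weeks (median 445) and fell by 0.81 (SE 0.15, adjusted p = 0.0162). Prg4, the lubricating proteoglycan of mesothelium and joints, fell by 1.03 (SE 0.24, adjusted p = 0.0397), and the third was Spp1. The rises were Gpc1, a heparan sulphate proteoglycan of the cell surface (925 to 1236 at 20 weeks (median 1115) and 1170 to 2291 at 30 weeks (median 1515); change 0.50, SE 0.09, adjusted p = 0.012), and Ltbp2, a microfibril protein (3313 to 5615 at 20 weeks (median 4066) and 5135 to 5812 at 30 weeks (median 5552); change 0.39, SE 0.09, adjusted p = 0.0397). Smoc2, a calcium-binding matrix protein of fibroblasts and basement membranes, lay at 492 to 841 at 20 weeks (median 661) and 724 to 1117 at 30 weeks (median 995) and rose by 0.52 (SE 0.08, adjusted p = 0.00841). Of 65 matrix enzymes, Pcolce, the enhancer of procollagen processing, rose by 0.41 (SE 0.09, adjusted p = 0.0356) and Mmp12 fell. Prg4 passed in 5, Ltbp2 in 3 and Pcolce in 6 of the 16 fits that left out a library. Vcan, Gpc1 and Smoc2 passed in all 16.

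Cell surface adhesion genes moved in both directions as well. Of 38 integrin genes, Itgb5, a chain of the vitronectin receptor, lay at 1386 to 1667 at 20 weeks (median 1517) and 1673 to 2212 at 30 weeks (median 1883) and rose by 0.35 (SE 0.06, adjusted p = 0.0162) with no overlap, whereas Itgam fell. Of 61 genes for cadherins, junctions and adhesion molecules 1 rose and 3 fell. The rise was that of Cdsn, corneodesmosin, a protein known from the outer skin, which lay at 287 to 551 at 20 weeks (median 394) and 575 to 1080 at 30 weeks (median 877) with no overlap (change 1.14, SE 0.15, adjusted p = 0.00219). Of 22 keratinocyte genes 4 were measured, and their summed level, which includes Cdsn, was 380.3 to 676.7 and 697.5 to 1162. Krt10, a keratin of the upper skin, was 56.5 ± 8.07 and 56.9 ± 16.1 (change -0.03, SE 0.15, adjusted p = 0.94). The falls were those of Pdpn, the membrane mucin podoplanin of lymphatic and stromal cells (66.3 to 289 at 20 weeks (median 122) and 28.5 to 120.3 at 30 weeks (median 49.2); change -1.19, SE 0.25, adjusted p = 0.0283), Alcam (change -0.50, SE 0.11, adjusted p = 0.0337) and Nectin3 (change -0.40, SE 0.09, adjusted p = 0.0374). Ly6a, the progenitor marker Sca-1, lay at 1602 to 4188 at 20 weeks (median 2649) and 1510 to 2262 at 30 weeks (median 1683) and fell by 0.59 (SE 0.13, adjusted p = 0.0333), and it belongs to a family of similar genes.

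Hormone receptors changed singly. Of 65 receptors for hormones, peptides and metabolites 2 rose and 2 fell. Sctr, the receptor of the gut hormone secretin, lay at 87.7 to 141 at 20 weeks (median 124) and 159 to 280.3 at 30 weeks (median 195) and rose by 0.74 (SE 0.12, adjusted p = 0.00841), with no overlap and a pass in all 16 fits that left out a library. Thra, the thyroid hormone receptor alpha, lay at 1296 to 1567 at 20 weeks (median 1500) and 1551 to 2389 at 30 weeks (median 1903) and rose by 0.41 (SE 0.08, adjusted p = 0.018). Prlr, the prolactin receptor, lay at 55.8 to 144 at 20 weeks (median 67.5) and 22.1 to 61.5 at 30 weeks (median 46.1) and fell by 0.85 (SE 0.18, adjusted p = 0.0248). Chrna2, an acetylcholine receptor subunit known from thermogenic adipocytes, fell by 0.77 (SE 0.18, adjusted p = 0.0388). In adrenergic and cyclic AMP signalling, the route by which nerves switch on heat production, 2 of 53 fell and 0 rose. These were Gnai1, an inhibitory G protein subunit (1308 to 1587 at 20 weeks (median 1494) and 946 to 1299 at 30 weeks (median 1205); change -0.35, SE 0.07, adjusted p = 0.0244), and Prkar2a, a regulatory subunit of protein kinase A (change -0.30, SE 0.07, adjusted p = 0.0397). Gnai1 did not overlap between the ages. When each of the 16 libraries was left out in turn, Gnai1 passed in 14 fits, Prkar2a in 5 and Chrna2 in 3.

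In lists of growth factor signalling, 4 genes rose and 2 fell, and the share past the threshold in the list of Notch, Hedgehog and cilium genes (1.49%) was near that of all genes (1.46%). With 1 gene each, it was also near it for Wnt (2%), angiogenesis and hypoxia (2.17%) and insulin and IGF signalling (1.96%). For receptor tyrosine kinases it was 3.23%. Of 62 receptor tyrosine kinase genes 2 rose. Ntrk2, a receptor of neurotrophins, rose by 0.35 (SE 0.07, adjusted p = 0.0163), and Spry1, a feedback inhibitor of receptor tyrosine kinases, lay at 343 to 412 at 20 weeks (median 373) and 413 to 585 at 30 weeks (median 480.2) and rose by 0.38 (SE 0.07, adjusted p = 0.018) with no overlap. Of 67 Notch, Hedgehog and cilium genes 49 had positive changes (median 0.14), and the Hedgehog signal transducer Smo rose by 0.34 (SE 0.08, adjusted p = 0.0388). Of 50 Wnt signalling genes the receptor Fzd8 rose by 0.52 (SE 0.12, adjusted p = 0.0374). Of 46 angiogenesis and hypoxia genes Ramp3, a partner of the adrenomedullin receptor, fell by 0.97 (SE 0.22, adjusted p = 0.0364). Of 51 insulin and IGF signalling genes 1 fell, the pseudokinase Trib2 (change -0.28, SE 0.07, adjusted p = 0.0487), and the insulin receptor Insr was 3178 ± 340.5 and 3120 ± 175 (change -0.02, SE 0.06, adjusted p = 0.885). Leaving out 1 library at a time, Smo passed in 4 of 16 fits, Fzd8 in 6, Ramp3 in 7 and Trib2 in 2.

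The genes that make brown fat what it is did not pass. With 1.46% of all genes past the threshold, 0 of a list of 34 says little about the list. Of 34 brown adipocyte and thermogenic genes 0 rose or fell, 14 had positive and 20 negative changes, and the median was -0.05. By limma at an unadjusted p under 0.05, 10 of these 34 genes would have passed, 5 in each direction, against 2537 of all 13252. Ucp1 lay at 85260 to 105100 at 20 weeks (median 91110) and 57650 to 119000 at 30 weeks (median 80270) (change -0.20, SE 0.12, adjusted p = 0.405), and its spread was wider at 30 weeks. The summed level of the list was 315000 to 353000 at 20 weeks and 273400 to 337100 at 30 weeks. The tricarboxylic acid cycle and respiratory chain had 54 of 75 positive changes, a median of 0.04 and 0 past limma's threshold (2 at an unadjusted p under 0.05). Of 37 adipokines and brown fat factors, C1qtnf9, a secreted relative of adiponectin, lay at 1276 to 1844 at 20 weeks (median 1645) and 1853 to 2212 at 30 weeks (median 2015) and rose by 0.35 (SE 0.07, adjusted p = 0.0275) with no overlap. Leptin (Lep) lay at 5122 to 14010 at 20 weeks (median 9626) and 8956 to 29770 at 30 weeks (median 18870) and did not pass (change 0.95, SE 0.26, adjusted p = 0.0694), and neither did adiponectin (Adipoq, change 0.14, SE 0.07, adjusted p = 0.296).

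Lipid handling changed at single steps. Of 55 cholesterol genes 1 rose and 2 fell. Soat1, which esterifies cholesterol for storage, lay at 266 to 334 at 20 weeks (median 300.3) and 178 to 246 at 30 weeks (median 224) and fell by 0.48 (SE 0.09, adjusted p = 0.0142), with no overlap. Lipa, which frees cholesterol and fatty acids in the lysosome, fell as given above, and Cyp27a1, which starts the sterol side chain oxidation, rose by 0.29 (SE 0.07, adjusted p = 0.0469). Of 51 genes for triglycerides and lipid droplets, the droplet coat protein Plin3 lay at 2817 to 4019 at 20 weeks (median 3384) and 3987 to 4785 at 30 weeks (median 4188) and rose by 0.36 (SE 0.07, adjusted p = 0.021). Of 62 genes for fatty acid oxidation and thioesterases 2 fell. Acot1, a thioesterase that frees fatty acids from coenzyme A, fell by 1.26 (SE 0.29, adjusted p = 0.0374), which is uncertain because Acot2 is nearly identical, and Acot2 itself did not pass (change -0.36, SE 0.10, adjusted p = 0.0743). Fatty acid synthesis genes had 24 of 31 negative changes (median -0.13) and 0 past limma's threshold (8 at an unadjusted p under 0.05), and of 74 phospholipid genes the phosphatase Plpp1 fell by 0.43 (SE 0.09, adjusted p = 0.0217). Plpp1 alone is 1.35% of the phospholipid list, near the 1.46% of all genes. Soat1 and Plin3 passed in all 16 fits that left out a library, Plpp1 in 15, Lipa in 6, and Cyp27a1 and Acot1 in 5 each.

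Of 67 glycolysis, glycogen and glucose uptake genes 2 rose. Pygb, a glycogen phosphorylase, lay at 2602 to 3670 at 20 weeks (median 3454) and 3295 to 5902 at 30 weeks (median 4819) and rose by 0.54 (SE 0.10, adjusted p = 0.0162), and it passed in all 16 fits that left out a library. Slc16a7, a carrier of lactate and pyruvate, lay at 193 to 358 at 20 weeks (median 285) and 337 to 488 at 30 weeks (median 390.0) and rose by 0.58 (SE 0.13, adjusted p = 0.0364). It passed in 6 of these 16 fits. The insulin-responsive glucose carrier Slc2a4 was 4353 ± 768 and 5606 ± 1076 and did not pass (change 0.36, SE 0.11, adjusted p = 0.097).

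Amino acid and other solute carriers gave 3 rises and 2 falls among 77. Slc1a5, which brings in glutamine and other neutral amino acids, lay at 7784 to 13140 at 20 weeks (median 10590) and 13060 to 16850 at 30 weeks (median 14820) and rose by 0.52 (SE 0.10, adjusted p = 0.0163). Slc15a2, a carrier of small peptides, lay at 66.6 to 314 at 20 weeks (median 149) and 226 to 403 at 30 weeks (median 292) and rose by 1.11 (SE 0.22, adjusted p = 0.0217), and Slc22a4, a carrier of ergothioneine and of organic cations, rose by 0.67 (SE 0.16, adjusted p = 0.0494). Slc6a6, the taurine carrier, lay at 4283 to 7246 at 20 weeks (median 4832) and 2809 to 3954 at 30 weeks (median 3172) and fell by 0.59 (SE 0.10, adjusted p = 0.0108) with no overlap. Slc12a2, which takes up sodium, potassium and chloride together, fell by 0.39 (SE 0.09, adjusted p = 0.0388). Slc22a4 and Slc12a2 each passed in 5 of the 16 fits that left out a library, and Slc1a5, Slc15a2 and Slc6a6 in all 16.

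Of 76 amino acid and one-carbon genes 2 rose and 1 fell. Mthfd1l, which makes formate in mitochondria, lay at 73.5 to 200.5 at 20 weeks (median 134) and 49.9 to 97.5 at 30 weeks (median 73.2) and fell by 0.86 (SE 0.15, adjusted p = 0.012). Aldh1l1, which oxidises formyl groups in the cytosol, lay at 651 to 1443 at 20 weeks (median 1030) and 1219 to 2577 at 30 weeks (median 1433) and rose by 0.53 (SE 0.12, adjusted p = 0.0362), and Psph, the last enzyme of serine synthesis, rose by 0.22 (SE 0.05, adjusted p = 0.0397). Mthfd1l passed in all 16 fits that left out a library, Aldh1l1 in 8 and Psph in 4.

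Enzymes of drug and xenobiotic metabolism were the metabolic list with the most rises. Of 72 measured 4 rose (5.56%, against 0.74% of all genes) and 0 fell, and 50 had positive changes with a median of 0.11. Cyp2b10, a cytochrome P450, lay at 27.4 to 248 at 20 weeks (median 64.3) and 141 to 383 at 30 weeks (median 225), and its rise of 1.58 (SE 0.32, adjusted p = 0.0241) was the largest of all genes. The value is uncertain because similar Cyp2b genes share reads. The glutathione transferases Gstt1 (312 to 515 at 20 weeks (median 427) and 478 to 798 at 30 weeks (median 594); change 0.58, SE 0.11, adjusted p = 0.0201) and Gstz1 (change 0.34, SE 0.08, adjusted p = 0.0495) and the sulphotransferase Sult1a1 (change 0.53, SE 0.11, adjusted p = 0.0307) also rose. Gstt1 passed in all 16 fits that left out a library, Cyp2b10 in 14, Sult1a1 in 10 and Gstz1 in 4. Haem is the cofactor of the P450 enzymes and of the respiratory chain. Alas1, its first enzyme, lay at 3571 to 6695 at 20 weeks (median 5401) and 6778 to 11680 at 30 weeks (median 8517) and rose by 0.85 (SE 0.15, adjusted p = 0.0149), with no overlap. Alas1 was the 1 of 48 haem, iron and copper genes to pass, or 2.08% of that list, near the 1.46% of all genes. The haem-degrading enzyme Hmox1 was 2219 ± 1784 and 621 ± 239 and did not pass (change -1.49, SE 0.37, adjusted p = 0.0503).

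Of 27 retinoid genes 1 rose and 2 fell. Dhrs9, which turns retinol into retinal, lay at 406 to 1605 at 20 weeks (median 734) and 255 to 571 at 30 weeks (median 362) and fell by 1.05 (SE 0.24, adjusted p = 0.0374). Aldh1a3, which turns retinal into retinoic acid, lay at 54.3 to 130.3 at 20 weeks (median 69.9) and 27.4 to 72.7 at 30 weeks (median 35.3) and fell by 0.90 (SE 0.18, adjusted p = 0.0217). Dhrs3, which turns retinal back into retinol, lay at 2363 to 4433 at 20 weeks (median 3808) and 4327 to 5259 at 30 weeks (median 4787) and rose by 0.46 (SE 0.11, adjusted p = 0.0498). Dhrs9 passed in 5 and Dhrs3 in 3 of the 16 fits that left out a library.

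Imprinted genes, which are read from 1 parental copy, gave 3 rises and 0 falls among 41. Nnat lay at 452 to 1136 at 20 weeks (median 846) and 819 to 2691 at 30 weeks (median 1721) and rose by 1.05 (SE 0.23, adjusted p = 0.0333). Blcap, whose intron holds Nnat on the opposite strand, lay at 1510 to 2214 at 20 weeks (median 1964) and 2023 to 2859 at 30 weeks (median 2504) and rose by 0.35 (SE 0.08, adjusted p = 0.0388). Reads of such overlapping genes can be told apart only by strand, and whether the authors counted by strand is not given in the sources used here. Ndn, necdin, a growth suppressor, rose by 0.39 (SE 0.08, adjusted p = 0.0241). Ndn passed in 12, Nnat in 9 and Blcap in 5 of the 16 fits that left out a library.

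Among 101 cell cycle and DNA replication genes 2 rose and 1 fell, and 63 had negative changes (median -0.09). Dut, which removes dUTP before it enters DNA, lay at 238 to 299.7 at 20 weeks (median 279.8) and 337 to 419.9 at 30 weeks (median 366) and rose by 0.44 (SE 0.07, adjusted p = 0.007), with no overlap. Rpa1, a single-strand DNA binding protein, rose by 0.35 (SE 0.08, adjusted p = 0.0388). Cdca7, a chromatin remodelling factor of dividing cells, lay at 63.1 to 110.0 at 20 weeks (median 82.2) and 36.5 to 60.5 at 30 weeks (median 53.6) and fell by 0.65 (SE 0.12, adjusted p = 0.0162), with no overlap. The proliferation marker Mki67 was 460.1 ± 108 and 373 ± 81.8 (change -0.30, SE 0.13, adjusted p = 0.217). The deacetylase Hdac11 rose by 0.57 (SE 0.14, adjusted p = 0.0497) and passed in 2 of the 16 fits that left out a library. Rpa1 passed in 5 of these fits, and Dut and Cdca7 in all 16.

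In vesicle traffic, Ehd3, a protein of endocytic recycling, lay at 176 to 451 at 20 weeks (median 297) and 391 to 657 at 30 weeks (median 545) and rose by 0.94 (SE 0.14, adjusted p = 0.007). The endocytic adaptor Dab2 lay at 689.5 to 1494 at 20 weeks (median 1014) and 585 to 890.4 at 30 weeks (median 697) and fell by 0.55 (SE 0.10, adjusted p = 0.0171). Pink1, the kinase that marks damaged mitochondria for removal, lay at 6356 to 7095 at 20 weeks (median 6917) and 7546 to 8723 at 30 weeks (median 7919) and rose by 0.24 (SE 0.05, adjusted p = 0.0201), with no overlap. In calcium signalling the kinase subunit Camk2b rose by 0.37 (SE 0.09, adjusted p = 0.049). The ubiquitin ligase Nedd4l, which removes ion channels from the membrane, lay at 1379 to 2406 at 20 weeks (median 1610) and 1091 to 1327 at 30 weeks (median 1213) with no overlap and fell by 0.52 (SE 0.10, adjusted p = 0.0163), and the formin Fmnl2, of the actin cytoskeleton, fell by 0.34 (SE 0.08, adjusted p = 0.0484). Camk2b and Fmnl2 each passed in 2 of the 16 fits that left out a library. Of 25 lists with no gene past the threshold, several were stress lists: 38 of 48 heat shock and chaperone genes, 34 of 51 unfolded protein response genes and 27 of 44 oxidative stress genes had negative changes, with medians of -0.07, -0.06 and -0.08. By limma 5, 8 and 14 of these had an unadjusted p under 0.05. Cytosolic ribosome and translation genes were split at 38 higher and 32 lower, with 3 at an unadjusted p under 0.05.

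The other 105 of the 193 genes were in no list, and the 15 rises and 15 falls of smallest p among them with an established symbol included some of the firmest changes. Tmem45b, a membrane protein, lay at 12760 to 14800 at 20 weeks (median 14420) and 16520 to 21330 at 30 weeks (median 18470) and rose by 0.38 (SE 0.06, adjusted p = 0.007) with no overlap. Proser2 (change 0.84, SE 0.13, adjusted p = 0.007) and the exonuclease domain protein Eepd1 (change 0.69, SE 0.12, adjusted p = 0.012) rose with no overlap either. Eya2, a transcriptional coactivator of developing tissues, lay at 221 to 473 at 20 weeks (median 394) and 471 to 707 at 30 weeks (median 628) and rose by 0.70 (SE 0.12, adjusted p = 0.0142). Gfra4, a coreceptor of the GDNF family (change 0.48, SE 0.09, adjusted p = 0.0142), Ccbe1, a matrix protein that lymphatic growth needs (change 1.02, SE 0.18, adjusted p = 0.0142), and the matrix protein Hmcn1 (change 0.71, SE 0.14, adjusted p = 0.0244) rose as well. The remaining rises of this set were Mturn, Anks1, Amotl2, Gypc, Pptc7, Ak1 and Grap, with changes from 0.28 to 0.56.

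Among the falls outside the lists was Slc4a4, a sodium bicarbonate carrier, which lay at 6334 to 9374 at 20 weeks (median 8516) and 3869 to 6927 at 30 weeks (median 5291) and fell by 0.67 (SE 0.11, adjusted p = 0.00841). The phosphate carrier Slc20a2 fell by 0.21 (SE 0.04, adjusted p = 0.0247), with no overlap. Igf2bp2, an RNA-binding protein that stabilises messages, lay at 102 to 390.1 at 20 weeks (median 136) and 53.1 to 132 at 30 weeks (median 83.1) and fell by 1.11 (SE 0.23, adjusted p = 0.0247). Phlpp2, a phosphatase that acts on the kinase Akt (change -0.32, SE 0.06, adjusted p = 0.02), Podxl, a sialomucin of the cell surface (change -0.40, SE 0.08, adjusted p = 0.0201), the scaffold Iqgap1 (change -0.41, SE 0.08, adjusted p = 0.0196) and the lipid flippase Atp8b1 (change -0.73, SE 0.15, adjusted p = 0.0241) also fell. The nucleolar genes Nop2 (change -0.42, SE 0.09, adjusted p = 0.0222) and Nepro (change -0.35, SE 0.07, adjusted p = 0.0248) were in this set. The others were Tmem82, Zdhhc13, Cdv3, Mpp6, Tgoln1 and Halr1, with changes from -1.19 to -0.33.

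All 193 genes had the same sign of change in females and in males. They were called from these same libraries with both sexes in 1 fit. Agreement in sign was thereby favoured in advance and is no separate support. Alone, the 8 female libraries gave 3 genes past the threshold and the 8 male libraries 1. The age change differed between the sexes for 0 of 13252 genes by limma's interaction test (0% called), with 1114 at an unadjusted p under 0.05. The test gave 1 gene with robust variance estimates and 1 with library weights. Il33 had changes of -1.42 in females and -2.21 in males and Il1rn -0.74 and -2.01, while Slc4a4 had -0.93 and -0.42.

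In lean SM/J brown fat, from mice on the low-fat diet, 0 of 12875 genes passed between the same ages (0% called), with 1879 at an unadjusted p under 0.05. The difference of the age change between the diets was tested as an interaction, and 0 of 12759 genes passed (0% called), with 1212 at an unadjusted p under 0.05. The genes that changed in obese SM/J mice mostly had the same sign in the lean animals, which are other mice. Of 97 genes that rose and were measured there, 90 had positive changes, with a median of 0.17 against 0.45 in the obese mice. Of 92 that fell, 70 had negative changes, with a median of -0.11 against -0.49. Over all genes shared by the tables, 6273 of 12759 had negative changes in the lean mice. The obese values are those by which the genes were called, so that they run large, and the smaller lean values are no sign of a diet effect by themselves.

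Immune lists had mostly positive changes in the lean mice. There the interleukin 1 family had 6 of 19 negative changes (median 0.04), leukocyte receptors 4 of 47 (median 0.23) and macrophage genes 3 of 27 (median 0.26), against 18 of 21, 37 of 48 and 19 of 28 in obese mice. Positive changes in the lean mice were not confined to immune lists. Matrix enzymes had 10 of 62 negative changes there, cytosolic ribosome genes 14 of 70 and respiratory chain genes 20 of 75. The obese values were 38 of 65, 32 of 70 and 21 of 75. Other lists leaned down in the lean mice, with skeletal muscle genes at 25 of 25 (median -3.44) and cell cycle genes at 66 of 93. No test was made of these lists. Il33 changed by -0.14 (SE 0.41) in lean mice, and the obese minus lean difference was -1.68 (95% interval -2.78 to -0.58, adjusted p = 0.477). For Il1rn the lean change was 0.17 (SE 0.43) and the difference -1.55 (95% interval -2.67 to -0.43, adjusted p = 0.477), and for Ccl9 they were -0.02 (SE 0.23) and -0.62 (95% interval -1.13 to -0.11, adjusted p = 0.477). By contrast Slc4a4 changed by -0.65 (SE 0.19) in lean mice, with a difference of -0.03 (95% interval -0.42 to 0.37, adjusted p = 0.967), and Sctr by 0.65 (SE 0.17), with a difference of 0.09 (95% interval -0.36 to 0.54, adjusted p = 0.893). None of these differences passed, and an adjusted p over the threshold does not show that the changes were alike.

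In LG/J brown fat on the high-fat diet 0 of 12716 genes passed between the ages (0% called), with 539 at an unadjusted p under 0.05. Of 95 genes that rose in SM/J and were measured there, 66 had positive changes (median 0.06), and of 85 that fell 46 had negative changes (median -0.02). The difference of the age change between the strains passed for 3 of 12450 genes (0.0241%). Dut rose in SM/J and changed by -0.12 (SE 0.08) in LG/J, with an SM/J minus LG/J difference of 0.56 (95% interval 0.35 to 0.77, adjusted p = 0.0359). Tctn1, of the ciliary transition zone, changed by 0.43 (SE 0.12) in SM/J and -0.33 (SE 0.10) in LG/J, with a difference of 0.76 (95% interval 0.48 to 1.03, adjusted p = 0.0359). Gldc, the glycine-cleaving decarboxylase, changed by -0.49 (SE 0.16) and 0.77 (SE 0.18), with a difference of -1.27 (95% interval -1.76 to -0.78, adjusted p = 0.0479). Neither Tctn1 nor Gldc passed for age in SM/J mice alone. The number past the threshold was 0 in 12 of the 16 fits that left out an SM/J library, and 22 without 20-week male 734, 5 without 20-week male 703 and 3 in the other two. Il33 changed by -0.23 (SE 0.16) in LG/J, with a difference of -1.58 (95% interval -2.27 to -0.90, adjusted p = 0.136), which did not pass.

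**Figure D4:**
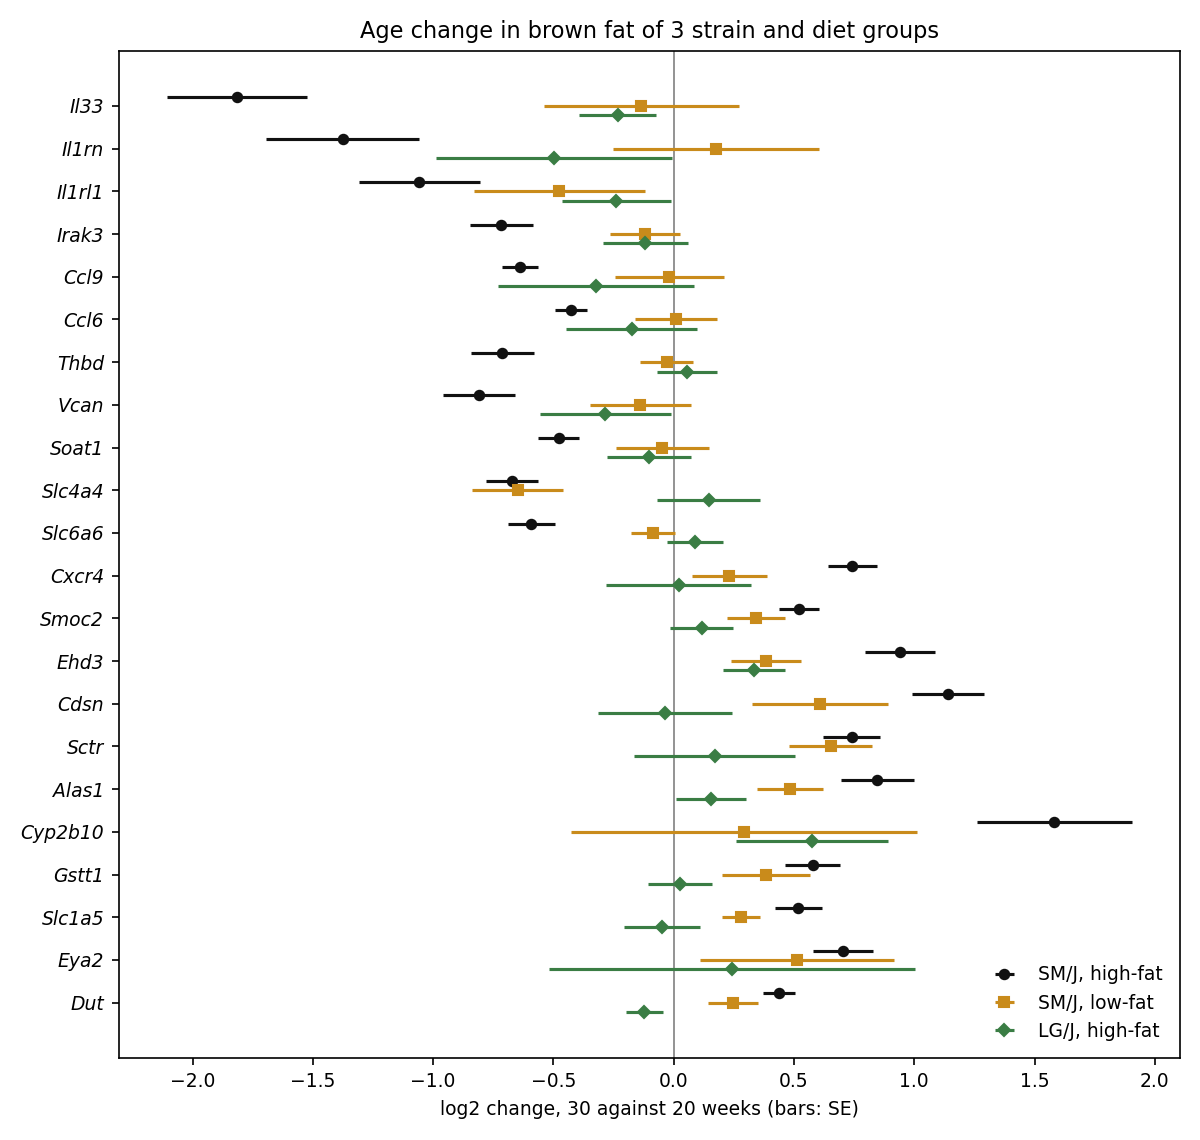
Log2 change from 20 to 30 weeks of 22 genes in brown fat of obese SM/J mice (high-fat diet, circles), lean SM/J mice (low-fat diet, squares) and LG/J mice (high-fat diet, diamonds), with bars of 1 SE. Il33, Il1rn and Ccl9 changed by -1.82, -1.38 and -0.64 in the obese SM/J mice and by -0.14, 0.17 and -0.02 in the lean ones, while Slc4a4 changed by -0.67 and -0.65 and Sctr by 0.74 and 0.65.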

How the data were processed

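RNA-seq libraries were made from flash-frozen tissue with ribosomal RNA removed, per the labels' protocols. Reads were handled with STAR 2.6.0c and edgeR on mm10, per the submitters' processing notes, and how they were counted is not given in the sources used here. The deposited tables hold normalised gene counts, a signal scaled by the authors that cannot be turned back into reads, so that sequencing depth is unknown and no count model was used. The series' design text names 4 biological replicates per cohort. Values were analysed as log2(value + 1) with limma 3.58.1 (R 4.3.3, Python 3.11.15), with age and sex as terms, a variance trend and Benjamini-Hochberg adjustment over all genes. This compresses changes of low genes. Interactions of age with sex, diet and strain were fitted over the libraries they compare, across separately normalised tables for diet and strain. The procedure was tested on simulated data. Genes and lists were chosen with earlier results of these data known. Named were list members past the threshold (at most 5 a list), up to 3 others as values, 15 rises and 15 falls in no list, 8 genes always followed, and genes of the interactions. X, Y and mitochondrial genes, and white fat, were not analysed here, and some genes that the rule names are not reported here. Alternatives changed the pseudocount, filter, scaling, variance model, covariates and libraries.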

Additional observations from a re-analysis of the deposited data

Results flagged for a closer look

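Among the genes named here and the summed marker levels, 314 sets of 8 libraries of 1 age were examined, and in 24 of them the highest or lowest library stood apart, with a gap to the next library too wide for the whole range by Dixon's criterion. Chance flags about 1 in 20 groups. The male 653 of 30 weeks was the highest in 7 of them, mostly immune genes: Irak3 at 523 (next 380.4), Il1r1 at 1428 (736), Ccr1 at 145 (88.6), Itgam at 432 (322), Osmr at 2066 (1097) and Thbd at 1309 (1008), with a summed red blood cell level of 37450 (19100).

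The male 290 of 20 weeks was the highest for Slc6a6 (7246), Podxl (2826), Ptgfrn (821) and F7 (122.5). The female 292 of 20 weeks was the highest for Col1a1 (4802), Col3a1 (26300), Prlr (143.7) and Chrna2 (156.7). The male 703 of 20 weeks was the highest for the summed fibroblast and preadipocyte level (69810) and the lowest for Acot2 (2872), the male 704 of 20 weeks the highest for Cdv3 (4568), and the female 864 of 20 weeks the lowest for Tmem45b (12760). At 30 weeks the female 646 was the highest for Aldh1l1 (2577) and Pcolce (9883), the male 655 the highest for Col3a1 (20790), the female 786 the lowest for Cdca7 (36.5) and the male 700 the lowest for Cyp27a1 (1929).

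The age change differed between the strains for Tctn1 by 0.76, for Dut by 0.56 and for Gldc by -1.27 (SM/J minus LG/J, by limma's interaction test).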

How the results depend on the processing

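The count of 193 genes that changed with age stayed within 1.5 times under other pseudocounts, a filter on low means, other scalings, robust variance estimates, library weights and a muscle covariate. It was 125 (67 higher, 58 lower) with no variance trend, 109 (69 and 40) with no sex term and 25 (15 and 10) with the macrophage level as a covariate, where the median size of the 193 was 0.451 against 0.479. It was 3 (1 and 2) in females alone and 1 (0 and 1) in males alone, where fewer libraries entered. Leaving out each library gave 64 to 609, with 35 to 271 higher and 27 to 338 lower. All 193 kept their sign in each of these fits in which they were tested. The fits reuse the libraries by which the genes were called, so that the kept signs are no separate support. The interaction with sex gave 1 gene with robust estimates and 1 with library weights, and 0 to 4 without a library. The interaction with diet gave 1 with no variance trend and 0 to 1 without a library. The interaction with strain gave 5 with library weights and 0 to 22 without a library. Insr, which did not pass at -0.02, was 0.008 under quantile normalization, 0.108 in males alone, and -0.054 to 0.009 without a library (0.009 and 0.005 without 20-week female 756 and 30-week female 646). Of the list medians under the alternatives, 12 shifted by more than the SD between libraries of the list's mean log2 level and 2221 by less, a wide margin. Within it, the interferon median of -0.18 was -0.012 with the macrophage covariate and -0.029 without 20-week male 704, and the fatty acid synthesis median of -0.13 was -0.054 without 20-week female 756. The cause of these shifts was not tested. No paired analysis was possible because the libraries of the 2 ages carry different animal numbers.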

Other observations

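A list of 95 measured genes of the nucleolus and ribosome assembly was drawn up after the values were seen, from the nucleolar genes among the falls, and so it gets no test. Of these, 90 had negative changes with age in obese SM/J mice, with a median of -0.19, and 6 fell. They were Nop2, Nepro, Mdn1 (change -0.41, SE 0.09, adjusted p = 0.0356), Npm1 (change -0.28, SE 0.06, adjusted p = 0.0388), Utp4 (change -0.30, SE 0.07, adjusted p = 0.0388) and Ddx18 (change -0.32, SE 0.07, adjusted p = 0.0397). In the 16 fits that left out a library, Nop2 passed in 14, Nepro in 11, Mdn1 in 6 and Utp4 in 4. Npm1 and Ddx18 passed in 3 each. The median was -0.04 in females, with 66 negative changes, and -0.38 in males, with 91. In lean SM/J mice 60 of 95 changes were negative (median -0.06), and in LG/J mice 39 of 95 (median 0.01). The cytosolic ribosome genes named in the report had 32 of 70 negative changes.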
